A study of Mus musculus with 5 samples.

Results

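The leukocytes without C1q of the mouse temporomandibular joint (TMJ) disc were 104 of the 51688 cells kept from 5 single-cell RNA libraries. They were chosen on their own counts: mitochondrial genes at most 30% of the unique molecular identifiers (UMIs, each standing for 1 captured RNA molecule), 0 UMIs of C1qa, C1qb, C1qc and Cdh5, and a UMI in at least 3 of the 6 leukocyte genes Ptprc, Tyrobp, Fcer1g, Cd52, Laptm5 and Coro1a. The levels of these 10 genes are therefore a description of the choice and not a result. Of the 104 cells, 69 had a UMI of Ptprc, 75 of Laptm5 and 80 of Coro1a.

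The labels give wild-type C57BL/6 mice for all 5 libraries, whereas the study's description of its injury surgery names Myh11-CreER; Tmfl/- mice, a reporter line for mural cells. Normal, untreated discs were taken at 3 days (3 d), 3 weeks (3 w), 16 weeks (16 w) and 78 weeks (78 w), and the injured library came from mice aged 7 weeks whose disc had been injured with a fine needle in open surgery at the age of 5 weeks (pinched according to the labels, punctured according to the methods). Discs were dissociated with Pronase and collagenase, each condition is 1 library with no replicate, the number of mice behind a library is not given in the sources used here, and every interval below covers counting error only. Pups of both sexes went into the 3 d suspension, all later normal mice were male, and the sex of the injured mice is not given in the labels. The methods say that the Myh11-CreER; Tmfl/- mice used for lineage tracing were male.

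Resident macrophages of joint tissue make the complement protein C1q, whereas neutrophils, monocytes fresh from blood, most dendritic cells, mast cells and lymphocytes make little or none. Neutrophils are short-lived cells that enter tissue from blood, dendritic cells carry antigen to T cells on MHC class II molecules, and mast cells store proteases in granules. Leaving out cells with C1q RNA thus sets aside the resident macrophages and keeps the less abundant leukocytes of the disc together.

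Some properties of the libraries bear on everything that follows. The normal libraries held, in order of age, 14959, 9372, 8775 and 10115 cells with medians of 7721, 12496, 9234 and 9466 UMIs per cell, and the injured library held 8467 cells with a median of 3299. Their UMIs totalled 125130270, 125427849, 88998394 and 105309834 in the same order, and 31585993 in the injured library. Xist, the RNA of the inactive X chromosome, was found in 73.7% of the injured cells but in 0.117% of the cells at 3 w, and in 0.330% and 0.138% of those at 16 w and 78 w. The Y-linked genes Ddx3y and Eif2s3y were at 0 in all 8467 injured cells, which allows a share of cells with a UMI of up to 0.0354% (3 counts of the total, as for every 0 below). Among the members, Xist was found in 12 of 16 injured cells and Ddx3y in none of them, so injury, sex, age and library cannot be told apart. Barcodes held by more than 1 library numbered 275 over all pairs of libraries, and 2 members had such a barcode, but no barcode was a member in more than 1 library.

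Leukocytes without C1q were most frequent in the newborn disc and least frequent at 3 w. The 3 d library held 53 of them, 0.354% of its cells (exact Clopper-Pearson 95% interval 0.266 to 0.463). The 3 w library held 4 (0.0427%, 0.0116 to 0.109), the 16 w library 12 (0.137%, 0.0707 to 0.239), the 78 w library 19 (0.188%, 0.113 to 0.293) and the injured library 16 (0.189%, 0.108 to 0.307). The 3 d interval lay above that of 3 w and 16 w and overlapped those of 78 w and the injured library, and the last 3 intervals overlapped each other. With 1 library per condition the spread between mice is unknown and no test was made.

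The share moved with depth. When each cell was thinned to 1000 UMIs and the rule was applied again, 31 cells at 3 d (0.228%), 5 at 3 w (0.0538%), 11 in the 16 w library (0.127%), 10 in the 78 w library (0.100%) and 18 in the injured library (0.237%) passed. The 3 w library remained the lowest, whereas 3 d and the injured library came out nearly level. Thinning left out 1339, 72, 81 and 151 shallower cells from the normal libraries in order of age and 857 from the injured library.

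**Figure D1:**
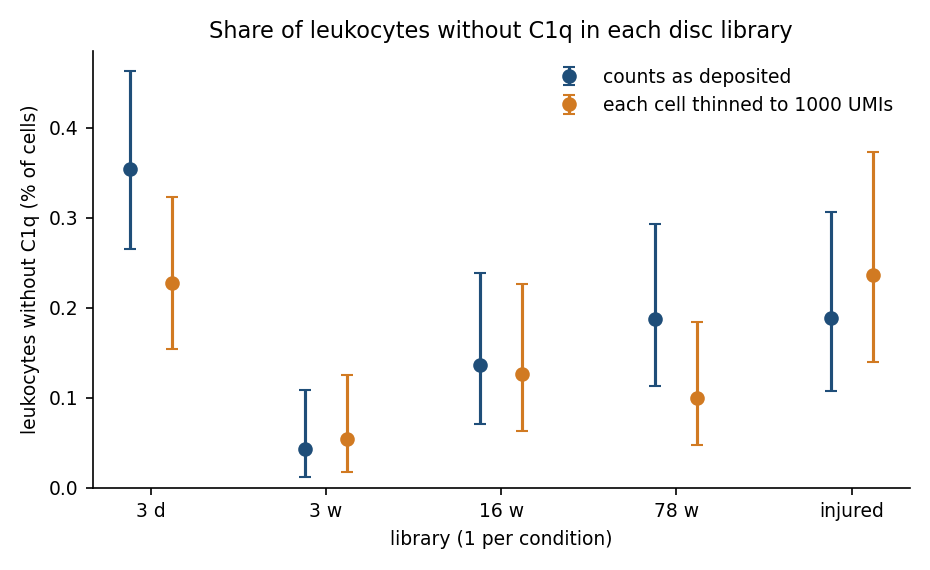
Leukocytes without C1q as a percentage of all cells of each library (vertical axis) in the 5 libraries (horizontal axis), with exact 95% binomial intervals, for the counts as deposited and after each cell was thinned to 1000 UMIs. The 3 d library has 0.354% as deposited and 0.228% thinned, and the 3 w library is lowest both times.

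Cells that passed the same leukocyte rule but held a C1q UMI numbered 245, 217, 93 and 252 in the normal libraries in order of age and 389 in the injured library. The cells without C1q were thus 17.8% of all leukocytes at 3 d (13.6 to 22.6) and 1.81% at 3 w (0.495 to 4.57). They were 11.4% in the 16 w library (6.05 to 19.1), 7.01% in the 78 w library (4.27 to 10.7) and 3.95% after injury (2.27 to 6.34). This share also depended on depth: with cells thinned to 1000 UMIs it was 20.4% at 3 d, 5.43% at 3 w, 28.2% in the 16 w library, 9.80% in the 78 w library and 9.52% after injury, so that 16 w and not 3 d was highest. Most C1q leukocytes lay far from the limit of 0 UMIs: 221, 209, 85 and 241 in order of age and 272 in the injured library had 10 or more. Just outside the limit, 8, 1, 1, 1 and 13 cells had a single C1q UMI in the same order. A stray C1q UMI was not rare, since 7.53% of the stromal cells at 3 d carried at least 1, as did 2.11%, 2.78% and 6.37% of those at the later ages and 4.76% in the injured library.

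At the other edge of the rule, 18 members at 3 d, 3 at 16 w, 3 at 78 w and 7 in the injured library had exactly 3 of the 6 leukocyte genes. A further 45, 2, 3, 7 and 21 cells from 3 d to the injured library had 2 of 6 and stayed out. In the 3 d, 16 w and injured libraries the members with 3 of 6 carried more stromal RNA: the 10 stromal genes, among them the collagen genes Col1a1 and Col3a1 and the lubricin gene Prg4, made up a median of 1.69% of their UMIs at 3 d and 6.48% after injury, against 0.132% and 0.138% in members with all 6 genes. At 16 w the medians were 0.309% and 0.101%, at 78 w they were 0.204% and 0.208%, and at 3 w no member had 3 of 6. Over all libraries 29 members had more than 1% stromal UMIs, 16 of them at 3 d, 1 at 3 w, 4 at 78 w and 8 in the injured library. Of those 29 cells, 18 sat at exactly 3 leukocyte genes, against 13 of the other 75. Whether the 29 are doublets, stromal cells with free leukocyte RNA or leukocytes with free stromal RNA was not tested. Some leukocytes with C1q in the injured library held stromal RNA as well. Their median stromal share was 3.83% in the 13 cells with 1 C1q UMI and 2.95% in the 104 with 2 to 9. It was 0.205% in the 272 with 10 or more. In the normal libraries these medians were at most 1.65%.

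**Figure D2:**
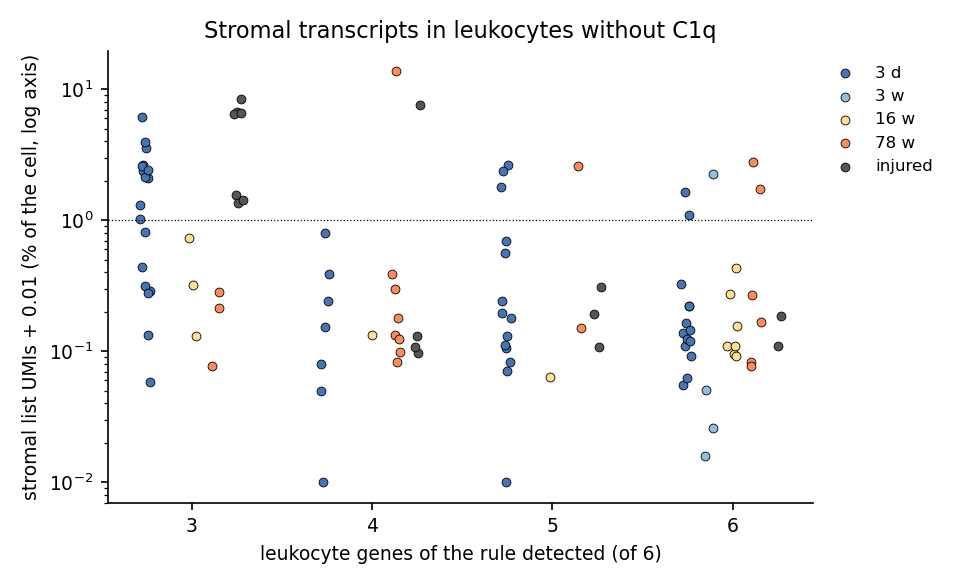
Each point is 1 of the 104 leukocytes without C1q, by the number of the 6 leukocyte genes detected (horizontal axis) and the percentage of its UMIs from 10 stromal genes, with 0.01 added (vertical log axis), coloured by library. The 29 cells above the dotted line at 1% crowd at 3 genes, where the 3 d and injured libraries place 18 of them.

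To describe the members, each cell was given the class with most of its voting genes detected, if at least 2 were detected and no other class had as many. There were 10 voting genes for each of the neutrophil, monocyte-macrophage, dendritic, mast and osteoclast classes and 8 with a row in the count files for the T-NK and B classes. A class is thus a range of gene counts. It held 18 cells for neutrophil, 23 for monocyte-macrophage, 12 for dendritic, 3 for mast, 9 for T-NK, 5 for B and 1 for osteoclast, and 33 cells had no class. The nearest calls were 6 monocyte-macrophage, 5 dendritic, 2 T-NK and 1 neutrophil cells with exactly 2 voting genes. A lead of a single vote decided 10 of the 23 monocyte-macrophage cells, 7 of the 12 dendritic, 3 T-NK and 1 neutrophil, among them 4 of 5 monocyte-macrophage cells at 16 w and 3 of 4 at 78 w.

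The mix of classes differed in number from library to library. At 3 d there were 16 neutrophil, 7 monocyte-macrophage, 5 B, 4 dendritic, 3 mast and 1 osteoclast cells and 17 without a class. At 16 w there were 5 monocyte-macrophage, 3 dendritic, 1 neutrophil and 1 T-NK cells, with 2 unclassed, and the 4 cells at 3 w were 2 monocyte-macrophage cells and 2 without a class. At 78 w the T-NK class was the most frequent with 8 of 19 cells, ahead of 4 monocyte-macrophage, 3 dendritic and 1 neutrophil cells. The injured library held 5 monocyte-macrophage and 2 dendritic cells and 9 without a class. These numbers are small and moved with depth: after thinning to 1000 UMIs the monocyte-macrophage class was 9.09% of the members at 16 w, in place of 41.7%.

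**Figure D3:**
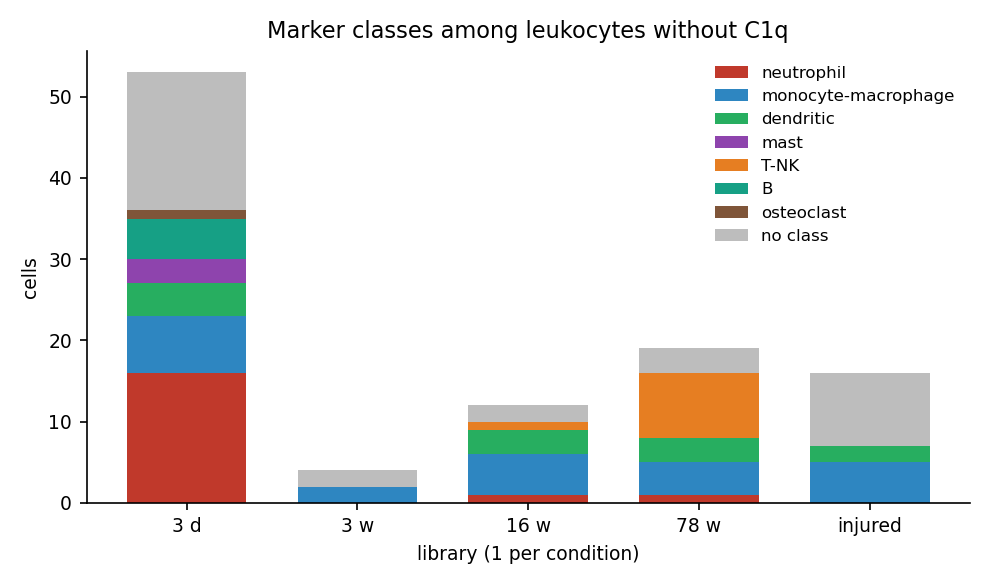
Cells of each marker class (stacked bars, vertical axis in cells) among the leukocytes without C1q of the 5 libraries (horizontal axis). Neutrophil cells are 16 of the 53 members at 3 d, and T-NK cells are 8 of the 19 at 78 w.

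Neutrophil-class cells were 30.2% of the members at 3 d (18.3 to 44.3), and 16 of the 18 came from that library. The 16 w and 78 w libraries gave 1 cell each, and 0 of the 16 injured members were in the class, which allows a share of up to 18.8%. S100a8 and S100a9, whose proteins pair as calprotectin in neutrophil cytosol, did not vote and were found in 18 of 18 cells. S100a8 (GRCm38 chr3:90668978-90670035) took a lowest, median and highest share of 0.180%, 1.59% and 6.61% of a cell's UMIs, and S100a9 (chr3:90692632-90695721) took 0.105%, 2.97% and 8.78%. In stromal cells S100a9 was found in at most 0.411% of cells of any library and S100a8 in at most 2.41%. The single cells at 16 w and 78 w fell within the range of the 3 d cells, with 6.59% and 4.38% of their UMIs from S100a9, and the 78 w cell also had over 1% stromal UMIs.

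Cxcl2, a chemokine that draws further neutrophils through the receptor Cxcr2, was the most abundant gene of the neutrophil lists. It was found in 17 of 18 cells with 4613 UMIs in all, and its share of a cell's UMIs ran from 0 through a median of 9.29% to 26.9%. The inflammatory cytokine gene Il1b was found in 15 of 18 cells (349 UMIs) and the chemokine gene Ccl3 in 9 (289 UMIs). Of the voting genes, Retnlg, a resistin-like gene of mature neutrophils, was found in 17 cells (493 UMIs), the G-CSF receptor gene Csf3r in 12, Trem1 in 11 and Cxcr2 in 7. Cxcl2 was also found in 21.1% of stromal cells at 3 d, at 100.1 CPM (UMIs per 1000000), so its presence in a cell is not specific while its level in these cells is far higher.

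The primary granule genes, which neutrophil precursors express in the bone marrow, were nearly missing. Of that list of 6, Elane, Mpo, Prtn3, Ctsg and Ms4a3 had 0 UMIs in the 66101 UMIs of the class, and Cebpe had 3. Of the genes of later granules, Camp was found in 2 cells, Ngp in 3, Mmp8 in 6 and Mmp9 in 7, and these genes voted. Ltf, which also voted, was found in 1 cell, and Fcnb, Chil3 and Mmp25 had 0 UMIs. The cell-cycle gene Mki67 had 0 UMIs as well. The secondary granule list of 7 genes, which holds Fcnb, Chil3 and Mmp25 but not Ltf, had 91 UMIs in the class, from 4 genes. Lcn2, which encodes an iron-sequestering granule protein, was found in 14 cells and the protease-inhibitor gene Slpi in 12. A group of stefin genes outside the lists, chosen after their values were seen, accompanied them: Stfa1 had 668 UMIs in 16 cells, BC100530 had 628 in 15 and Stfa2l1 had 387 in 18, against 37.4, 8.98 and 19.5 CPM in the other members.

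Monocyte-macrophage-class cells were found in every library, and 6 of 23 rested on 2 voting genes. Ccr2, Csf1r, Ms4a6c, Adgre1 and Ly6c2 voted, so their presence in the class describes the choice and is not a result. Ccr2, the receptor by which blood monocytes follow Ccl2 into tissue, was found in 16 of 23 cells (82 UMIs), Csf1r, the receptor for macrophage colony-stimulating factor, in 15, Ms4a6c in 14 and Adgre1, which encodes F4/80, in 14. Ly6c2, the marker of classical blood monocytes, was found in 2 cells, both at 3 d. The macrophage list was sparse: Cd68 was found in 18 cells, but Mertk in 2, Trem2 in 4 and Pf4 in 4, with Folr2, Lyve1 and Vsig4 at 0.

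MHC class II RNA varied within the class. At 16 w, Cd74, the invariant chain that escorts MHC class II, was found in 5 of 5 cells at a median of 4.14% of the cell's UMIs, and H2-Ab1 in 5 of 5. At 3 w both genes were in 2 of 2 cells and at 78 w in 4 of 4. At 3 d H2-Ab1 was found in 2 of 7 cells, where Plac8, a gene of monocytes recently out of the marrow, was found in 5 of 7 with 171 UMIs. In the injured library H2-Ab1 was found in 1 of 5 cells, Ccr2 in 1 of 5 and Plac8 in none, and Col1a1 had up to 452 UMIs in a cell. Plac8 had 1 UMI in the 16 monocyte-macrophage cells of the other libraries.

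Dendritic-class cells numbered 4 at 3 d, 3 at 16 w, 3 at 78 w and 2 after injury. H2-Aa, H2-Ab1, H2-Eb1 and Cd74, none of which voted, were found in 12 of 12 cells, and the MHC class II list reached 54133 CPM against 34796 in the monocyte-macrophage class and 45.4 in the neutrophil class. H2-Ab1 (chr17:34257689-34269419) made up from 0.238% to 2.10% of a cell's UMIs, with a median of 0.907%. Cd83, a surface protein of activated dendritic cells, was found in 11 of 12 cells (209 UMIs). The vote leaned on Naaa, found in 12 of 12 cells with 59 UMIs but also in 5.49% to 23.9% of stromal cells, and 0.145% to 3.73% of stromal cells had at least 2 dendritic voting genes, so this vote had the highest background of the 7.

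Some subset genes were found mostly in the dendritic cells at 3 d and others only in later ones, which is a description: Clec9a, Cd209a and Wdfy4 voted, and 3 cells entered the class on Naaa and Cd209a alone and 1 on Naaa and Clec9a alone. Irf8, a transcription factor of cross-presenting type 1 dendritic cells, was found in 3 of 4 cells at 3 d with 10, 6 and 4 UMIs, Cadm1 in 3 of 4 with 7, 9 and 1, and Clec9a, a receptor for dead cells, in 3 of 4 with 1 UMI each, while Cd209a and Mgl2, genes of type 2 dendritic cells, were at 0 in all 4. Cd209a was found in 3 of 3 cells at 16 w, with 26, 1 and 2 UMIs, in 2 of 3 at 78 w, with 1 and 22, and in 2 of 2 after injury, with 12 and 1. Mgl2 was found in 1 of 3 cells at 16 w, 1 of 3 at 78 w and 2 of 2 after injury. Other type 1 genes were found on both sides, with Batf3 in 1 of 4 cells at 3 d and 2 of 8 later and Wdfy4 in 3 of 4 and 3 of 8. Of the 8 later cells, 1 at 78 w had 7 UMIs of Irf8 and 1 of Cadm1 with 0 of Cd209a. Ccr7, the receptor that guides dendritic cells to lymph nodes, was found in 1 cell, at 3 d, with 18 UMIs. Xcr1 and Siglech had 0 UMIs in the class, and so did Ccl22 and the migratory genes Fscn1, Ccl17 and Il4i1.

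The 3 mast-class cells were all at 3 d, with 8, 9 and 10 of the 10 voting genes detected and at most 2 of any other class. Cma1, the mast-cell chymase (chr14:55941451-55944675), had 182, 313 and 471 UMIs, from 1.57% to 5.97% of a cell's UMIs. The tryptase gene Tpsb2 had 504 UMIs, the protease genes Mcpt4 and Cpa3 had 426 and 282, and Hdc, which makes histamine, had 47. Among genes that did not vote, Prss34 was found in 3 of 3 cells (35 UMIs), Cyp11a1 in 3 of 3 (23 UMIs) and Il1rl1, the IL-33 receptor, in 3 of 3 (22 UMIs). Il4 had 5 UMIs and Il13 had 4, in 1 cell, and Il6 had 0. Mcpt1, Mcpt2 and Mcpt9 were listed at 0 in all cells of the 5 libraries. Cma1 was found in 0.630% of the stromal cells at 3 d and in at most 0.0116% of those in any other library. No mast-class cell was found among 12 members at 16 w, 19 at 78 w or 16 after injury, which allows shares of up to 25.0%, 15.8% and 18.8%.

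The T-NK class was voted for by Il7r, the CD3 genes and Lck, among others, so these describe the choice. T-NK-class cells were 8 of 19 members at 78 w (42.1%, 20.3 to 66.5) and 1 of 12 at 16 w. None of the 53 members at 3 d was in the class, which allows a share of up to 5.66%, and none of the 16 injured members was. Il7r, the receptor for the lymphocyte survival factor interleukin-7 (chr15:9505788-9530176), was found in 9 of 9 cells, with 2 to 16 UMIs and a median of 7, and in at most 0.0348% of stromal cells in any library. The CD3 genes of the T cell receptor complex were found in 7 of 9 cells: Cd3g in 7, Cd3d in 6 and Cd3e in 3. The cell at 16 w had 19 CD3 UMIs, and the 8 at 78 w had 0, 8, 1, 13, 0, 6, 4 and 8. After each cell was thinned to 1000 UMIs, 1 of the 10 members left at 78 w was in the class. Cd3g was at 0 in the stromal cells of all 5 libraries.

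The 2 cells without a CD3 UMI, both at 78 w, carried genes of type 2 innate lymphoid cells, which lack a T cell receptor. They had 1 and 20 UMIs of Gata3, 6 and 5 of Il1rl1, 3 and 1 of Klrg1 and 1 and 5 of Areg, and 3 UMIs of Il7r each. The type 2 cytokine genes Il5 and Il13 were at 0 in both, and the 1 UMI of Il5 in the class lay in a cell with CD3. Il1rl1, Klrg1 and Areg were at 0 in the 7 cells with CD3, and Gata3 had 1 and 3 UMIs in 2 of those. Cd163l1, a scavenger receptor of interleukin-17-producing gamma-delta T cells, was found in 2 cells with CD3, with 3 UMIs at 16 w and 6 at 78 w. Il17a was at 0. Icos was found in 6 of 9 cells and Il2ra in 5. Cd4 had 1 UMI, Cd8a, Cd8b1 and Foxp3 had 0, and of the 8 NK and cytotoxic genes Ccl5 was found in 1 cell (15 UMIs) and the other 7, among them Gzma, Gzmb and Prf1, were at 0. The innate lymphoid list reached 2509 CPM in the class, led by Rora at 1023 CPM, a gene found in 41.2% to 93.9% of stromal cells as well.

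B-class cells were 5, all at 3 d, with 4 to 7 voting genes. Cd79b was found in 5 of 5 cells (42 UMIs), Cd79a, its partner in the B cell receptor (chr7:24897381-24902197), in 3 (51 UMIs), and Ms4a1, which encodes CD20, in 4 (31 UMIs). Vpreb3, a gene of developing B cells, was found in 3 cells (27 UMIs), and outside the vote Ebf1, a transcription factor of the B lineage, in 5 (35 UMIs) and Ly6d in 5 (43 UMIs). Rag1, Rag2, Dntt, Vpreb1 and Igll1, the genes of receptor rearrangement and of the surrogate light chain, had 0 UMIs, as did Il7r and the plasma-cell gene Jchain. Cd74 was found in 4 cells (85 UMIs) while H2-Ab1 had 2 UMIs. The cells were shallow, with a median of 1864 UMIs, so low-level RNAs could be missed.

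The 1 osteoclast-class cell, at 3 d, had 19587 UMIs and 8 of 10 voting genes. Acp5, the tartrate-resistant acid phosphatase, had 210 UMIs, and the proton-pump gene Atp6v0d2 had 53. Ctsk, the collagen-digesting cathepsin K, had 338 UMIs and Mmp9 had 270, or 1.73% and 1.38% of the cell. Ctsk alone would not mark the cell, since 36.6% to 82.8% of stromal cells carried it. No other library had a cell of this class.

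**Figure D4:**
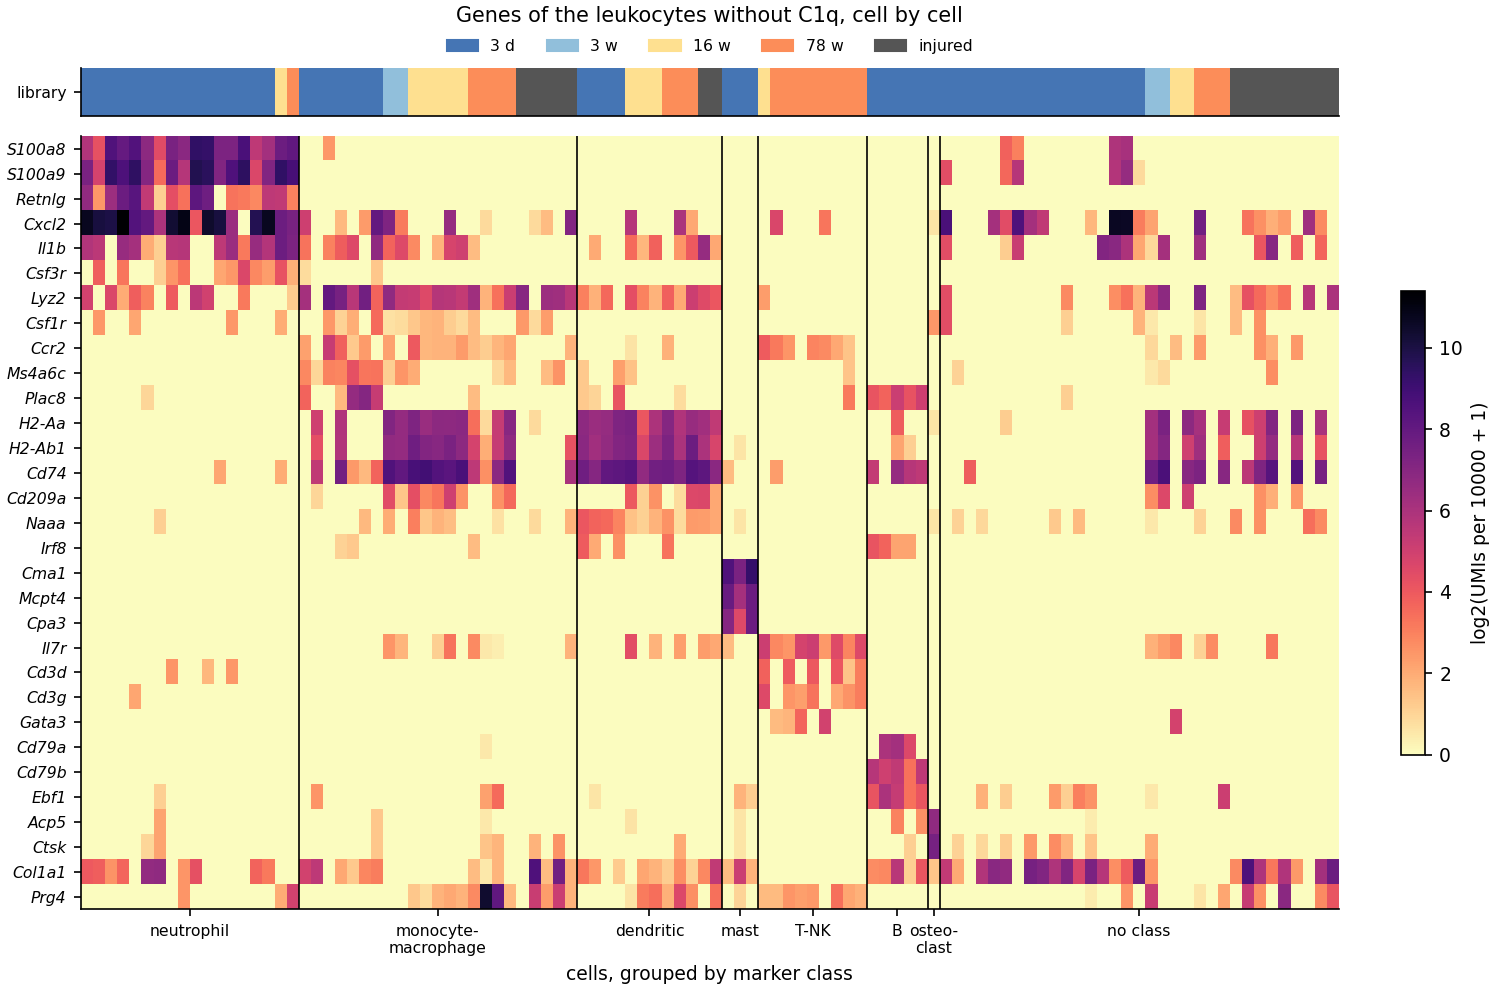
Level of 31 genes (rows) in each of the 104 leukocytes without C1q (columns), as log2 of UMIs per 10000 plus 1, with cells grouped by marker class and, within a class, by library (top strip). S100a8 and S100a9 fill the neutrophil block, H2-Aa, H2-Ab1 and Cd74 the dendritic block and part of the monocyte-macrophage block, Cma1 and Mcpt4 the 3 mast cells, and Col1a1 much of the block without a class.

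The 33 cells without a class were of several kinds. Over 1% stromal UMIs were found in 17 of them, 11 at 3 d, 1 at 3 w and 5 after injury. Of the other 16, 6 had UMIs of H2-Aa, H2-Ab1 and H2-Eb1 together, 3 at 3 d had both S100a8 and S100a9, and 7 had neither set. Among the 17, 1 more cell at 3 d had both S100 genes, and 3 cells had all 3 MHC class II genes. No voting gene was found in 7 of the 33, at most 1 per class in 19, and 7 were ties. Both unclassed cells at 3 w were ties between the dendritic and monocyte-macrophage votes and carried Cd209a, with 42 UMIs between them. With these, S100a8 and S100a9 were found together in 20 of 53 members at 3 d, in 1 of 12 at 16 w and 1 of 19 at 78 w, and in none at 3 w or after injury.

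MHC class II was higher in the leukocytes without C1q than in those with C1q in 5 of 5 libraries. At 3 d the 8 genes of the list summed to 7695 CPM without and 113 CPM with C1q, a ratio of 68.0 (exact 95% interval 61.0 to 75.9). The ratio was 34.3 at 3 w (61676 against 1801 CPM), 13.4 at 16 w (61947 against 4615), 3.42 at 78 w (23699 against 6937) and 5.20 after injury (15406 against 2962). The level with C1q was higher in each later normal library, while the level without C1q was highest at 3 w and 16 w. Stromal cells had 23.4 to 36.3 CPM. Cells with all of H2-Aa, H2-Ab1 and H2-Eb1 were 6 of 53 members at 3 d, 4 of 4 at 3 w, 9 of the 12 members at 16 w, 9 of the 19 at 78 w and 6 of 16 after injury.

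Il1b, which encodes interleukin-1 beta, was also higher without C1q in 5 of 5 libraries. It had 997 CPM without and 93.5 CPM with C1q at 3 d, a ratio of 10.7 (9.11 to 12.5), and ratios of 11.3 at 3 w, 14.6 and 9.70 at 16 w and 78 w, and 32.0 after injury (1682 against 52.5 CPM, 23.6 to 43.6). The Il1b UMIs were not confined to the neutrophil class, since the injured and 3 w libraries held none of that class and still had Il1b in 6 of 16 and 4 of 4 members. Cxcl2 went the other way, with ratios of 0.791 at 3 d (0.769 to 0.813), 0.378, 0.414 and 0.237 at the later ages and 0.455 after injury, below 1 in 5 of 5 libraries. At 3 d it had 16003 CPM without and 20225 CPM with C1q. The value without C1q pools all classes, among them the neutrophil class with its high Cxcl2 level described above. How far the ratio depends on the mix of classes was not tested.

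The 12 genes of the interferon response list summed to less without C1q in 5 of 5 libraries, with ratios from 0.468 at 3 d (1153 against 2463 CPM) to 0.912 at 16 w, where the interval of 0.775 to 1.07 included 1. The 10 macrophage genes were lower by 3.45-fold after injury to 55.2-fold at 78 w. Since the 2 groups were set apart by C1q, a gene set of resident macrophages, this difference describes the choice and is not a result. The 10 chemokine receptor genes were higher in 5 of 5 libraries, by 1.16-fold at 3 d (0.960 to 1.40) to 2.21-fold at 3 w. No test was made of these contrasts: 5 libraries in 1 direction cannot go below a two-sided p of 0.0625 in an exact sign-flip permutation test. Leaving out the members with over 1% stromal UMIs moved the MHC class II ratio to 121 at 3 d and 8.76 after injury. It moved the Il1b ratio to 19.4 and 63.3 there and to 17.5 at 3 w. Both ratios stayed above 1 in every library. The leukocytes with C1q were not filtered in the same way, so these ratios are not like for like. After injury the stromal list was at 31345 CPM in the leukocytes with C1q and at 33302 CPM in the unfiltered members. How far stromal RNA bears on the ratios was thus not tested.

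**Figure D5:**
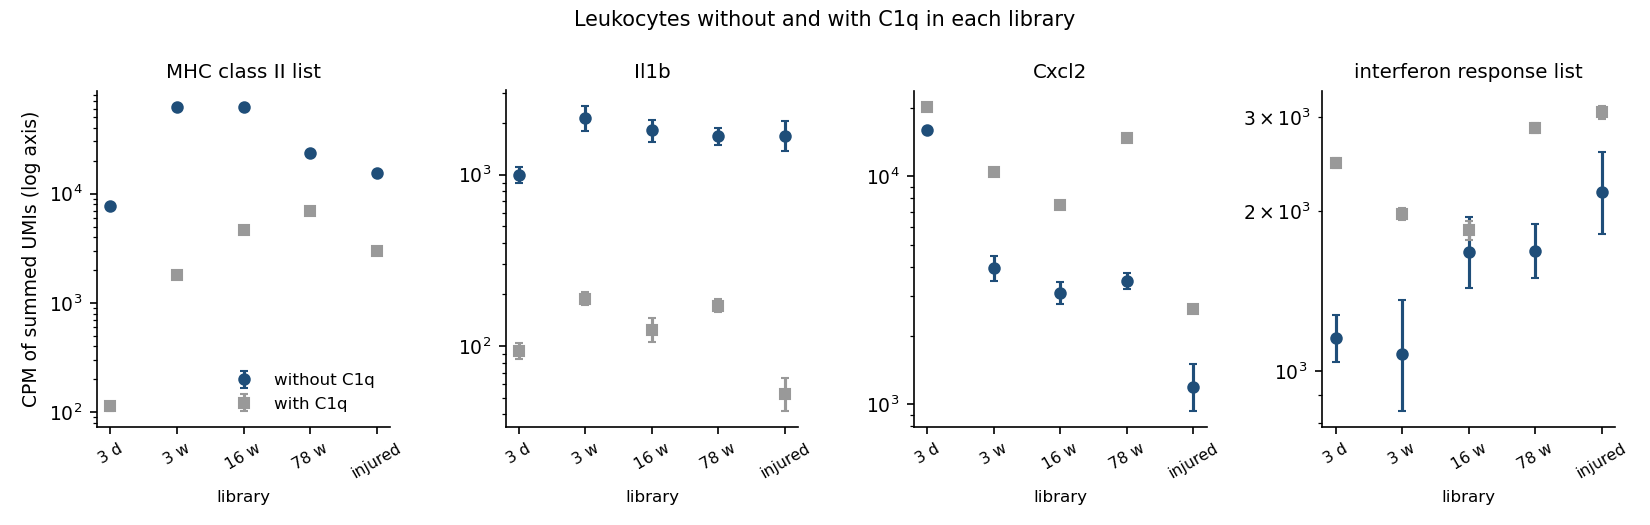
Summed level (CPM, vertical log axis) of the MHC class II list, Il1b, Cxcl2 and the interferon response list in leukocytes without C1q (circles) and with C1q (squares) of the 5 libraries (horizontal axis), with exact Poisson 95% intervals. The MHC class II list and Il1b are higher without C1q in all 5 libraries, and Cxcl2 is lower in all 5.

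Between libraries, all genes with at least 100 UMIs in the members of either library were compared, and a gene was called when it differed at least 2-fold with 100 UMIs in the higher library. The members held 338123, 64968, 100279 and 171060 UMIs in the normal libraries in order of age and 59456 in the injured library. The limit of 100 UMIs is thus a lower level in a library with more UMIs, and the counts per direction depend on these totals. The balance of higher and lower genes is therefore not read as a result. Only genes with 100 UMIs in the library with the higher level could be called. They numbered 348, 157, 202, 138 and 172 in the comparisons, in the order given below. The percentages below are of all genes compared and so are not set against each other. From 3 d to 3 w, 154 of 441 genes were called (34.9%), 131 lower and 23 higher (29.7% and 5.22%). From 3 w to 16 w, 21 of 163 were called (12.9%), 17 higher and 4 lower (10.4% and 2.45%). From 16 w to 78 w, 26 of 215 were called (12.1%), 13 in each direction (6.05%). The injured members differed from 3 w in 52 of 138 genes (37.7%, with 15.9% higher and 21.7% lower) and from 16 w in 72 of 177 (40.7%, with 11.9% higher and 28.8% lower), and these 2 comparisons share the injured library. The libraries also differ in their mix of classes, whose part in these counts was not tested, and no class had 50 cells in both libraries of a pair, the number set for comparing a class on its own.

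The genes that were lower at 3 w than at 3 d by the largest folds were those of neutrophils and mast cells, which the 4 cells at 3 w did not include. S100a9 had 4954 CPM at 3 d and 0 of 64968 UMIs at 3 w, at least 107-fold lower when 3 counts in the library are taken as the limit, S100a8 at least 76.7-fold, Cma1 at least 61.9-fold, Stfa1 at least 44.4-fold and BC100530 at least 40.6-fold. The genes higher at 3 w by the largest folds were Cd14, a co-receptor for bacterial lipopolysaccharide (13.2-fold, 3448 against 260 CPM), Cd74 (9.72-fold), H2-Aa (7.49-fold), H2-Ab1 (7.28-fold) and the autophagy adaptor gene Sqstm1 (7.16-fold). In the non-leukocytes of the same libraries, meaning all cells outside both leukocyte groups, Cd14 was 20.6-fold, Sqstm1 5.68-fold, H2-Ab1 4.97-fold and Cd74 1.14-fold higher at 3 w, and H2-Aa was 1.75-fold lower. The leukocytes with C1q also had more of these genes at 3 w: Cd74 was at 766 CPM against 32.2 at 3 d, H2-Aa at 276 against 2.98, H2-Ab1 at 229.9 against 2.38 and Cd14 at 650.2 against 163.

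At 16 w against 3 w the genes with the largest folds upward were S100a9 (at least 48.6-fold, all 225 UMIs in 1 cell), Atf3 (7.19-fold), the heat-shock genes Hspa1b (5.22-fold) and Hspa1a (4.91-fold) and Tmsb10 (3.39-fold). In the non-leukocytes at 16 w, Hspa1b was 4.75-fold, Hspa1a 2.86-fold and Tmsb10 1.17-fold higher, whereas Atf3 was 1.24-fold lower. Atf3, Hspa1a and Hspa1b belong to the dissociation-stress list, which reached 16125 CPM in the members at 16 w and 5480 at 3 w. This list was at 35538 and 9993 CPM in the leukocytes with C1q and at 17442 and 9893 CPM in stromal cells. The part of dissociation in these folds was not tested. Lower at 16 w were Cd14 (8.04-fold), Dcn (5.36-fold, 98.9% of its 3 w UMIs in 1 cell), Hmox1 (2.81-fold, 88.5% in 1 cell) and the lysozyme gene Lyz2 (2.79-fold). The next gene, Ddx5, was 1.78-fold lower and so under the limit of 2-fold. In the non-leukocytes Hmox1 was 2.33-fold, Lyz2 1.27-fold and Cd14 1.16-fold lower at 16 w, whereas Dcn was 1.28-fold higher.

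At 78 w against 16 w the largest folds upward rested on few cells. Prg4 was 95.2-fold higher, with 77.4% of its 4222 UMIs in 1 monocyte-macrophage cell that had 13.7% stromal UMIs, and Fn1 was 39.5-fold higher, with 76.9% in 1 cell. All 482 UMIs of Retnla, a resistin-like gene of alternatively activated macrophages, came from 1 cell without a class, against 1 UMI at 16 w (interval of the ratio 50.5 to 11183). Of the stromal genes Sparc and Aebp1, Sparc had 119 UMIs against 2 (9.45 to 291), and Aebp1 was at least 20.7-fold higher. Lower at 78 w were Cd209a (3.92-fold, 292 against 1147 CPM), Dnaja1 (3.41-fold), the inhibitory receptor gene Lilr4b (3.38-fold), Cd74 (2.83-fold) and Cd44 (2.71-fold). In the non-leukocytes Dnaja1 was 1.26-fold and Cd209a 1.17-fold lower at 78 w, whereas Lilr4b was 2.19-fold, Cd74 2.04-fold and Cd44 1.04-fold higher. Prg4, Retnla, Fn1, Sparc and Aebp1 were 1.81-fold, 3.04-fold, 2.32-fold, 1.22-fold and 1.41-fold higher there.

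In the injured members the genes with the largest folds upward were stromal genes or genes higher throughout that library. Against 16 w, Col1a1 was 280-fold higher (11185 against 39.9 CPM), Col1a2 113-fold, Pam 82.1-fold (27.5 to 403) and Col3a1 62.8-fold. Sparc had 360 UMIs against 2 (83.4 to 2516). The injured cell with most UMIs of a gene held 68.0%, 55.2%, 61.6%, 38.9% and 46.4% of them, in that order. In the non-leukocytes of the 2 libraries these genes were 26.0-fold, 6.39-fold, 4.38-fold, 7.11-fold and 4.82-fold higher after injury, in the same order. Against 3 w, Gm26870 was at least 94.7-fold higher (45.0% of its UMIs in 1 cell), Col1a1 66.1-fold and Igfbp5 at least 41.2-fold (37.2%). Pam had 146 UMIs against 2 (interval of the ratio 21.7 to 665) and Comp 110 against 1 (21.1 to 4790, 43.6% in 1 cell). In the non-leukocytes Gm26870 was 17.5-fold and Igfbp5 3.01-fold higher, but Comp was 1.66-fold lower.

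Among the genes lower after injury, S100a9 was at 0 and so at least 44.5-fold lower than at 16 w, where 1 cell held it. Gadd45b, a stress-response gene, was 28.8-fold lower than at 16 w, the metallothionein gene Mt2 8.62-fold, Cd83 7.89-fold and Gnb2l1, the ribosomal scaffold gene also called Rack1, 7.83-fold. In the non-leukocytes Gadd45b was 7.58-fold, Mt2 10.6-fold and Gnb2l1 3.03-fold lower after injury, whereas Cd83 was at 1.60 CPM after injury and 1.35 CPM at 16 w. In the leukocytes with C1q, Cd83 was lower after injury as it was in the members, at 164 against 1101 CPM. Against 3 w, Gm42418 was 11.3-fold lower, Gnb2l1 8.60-fold, Cd14 8.54-fold, Srgn, the proteoglycan of leukocyte granules, 7.76-fold and Neat1 6.41-fold, and in the non-leukocytes they were 15.5-fold, 3.20-fold, 3.83-fold, 1.31-fold and 5.69-fold lower. In the leukocytes with C1q, Cd14 was at 346.5 CPM after injury and 650.2 at 3 w. The part of library-wide differences, of sex and of stromal RNA in these folds was not tested.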

How the data were processed

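The authors deposited, for each of 5 libraries, a table of UMI counts per gene and cell, made with Cell Ranger (3.1 in the submitters' processing notes, 4.0.0 in the file headers) against mm10, and these raw counts were read as deposited. The 78 w library was taken by its label, since its file name gives another age. Cells with over 30% mitochondrial UMIs were left out, and no doublets or free RNA were removed. Levels are CPM of counts summed over cells. Intervals are exact (Clopper-Pearson for shares, Poisson for CPM, binomial for ratios; 95%) and, with 1 library per condition, no differential test was run. Stromal cells, used as background, had at least 10 UMIs of 10 stromal genes and 0 UMIs of the 6 leukocyte genes and Cdh5. Genes at 0 were set at 3 counts for folds, and the upper limit of a share at 0 is 3 of the total. The 5 genes with the largest folds in each direction, with at least 100 UMIs in the higher library, are named for each pair of libraries, and from the lists those with the highest levels in a class. Thinning drew 1000 UMIs per cell (seed 1). The voting lists were read without Trac, Trbc2, Ighm and Igkc, which have no row under those names. The members, lists and comparisons were chosen with earlier results of these data known. Positions are from GENCODE M21 (GRCm38), whose gene IDs matched 27722 of 27998. The fold step was tested on simulated data. Python 3.11.15, numpy 2.4.6, scipy 1.17.1, pandas 2.3.3 and matplotlib 3.10.9 were used.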

Additional observations from a re-analysis of the deposited data

How the results depend on the processing

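The share of leukocytes without C1q stayed within its counting interval in 31 of 40 repeats. At 3 d it moved from 0.354% to 0.655% with 2 of 6 genes, 0.234% with 4 of 6, 0.228% when thinned to 1000 UMIs and 0.247% without members over 1% stromal UMIs, a limit chosen after seeing the data. At 78 w it was 0.100% when thinned. In the injured library it moved from 0.189% to 0.437% with 2 of 6 genes, 0.106% with 4 of 6, 0.343% with 1 C1q UMI allowed and 0.0945% without members over 1% stromal UMIs. Class shares have wide intervals, and 89 of 175 repeats compared 0 with 0. Of the other 86, 22 moved by over 1.5 times, and 4 left their interval: thinned to 1000 UMIs, the osteoclast share at 3 d was 0%, the monocyte-macrophage share at 16 w 9.09% and the T-NK share at 78 w 10.0% (1 cell of 10), and without members over 1% stromal UMIs the neutrophil share at 78 w was 0%. With 50 in place of 100 UMIs, the genes past 2-fold were 355 for 3 w against 3 d, 56 for 16 w against 3 w, 96 for 78 w against 16 w, 110 for the injured library against 3 w and 147 against 16 w. The other 10 gene counts stayed within 1.5 times. The limits are 1 library per condition, 104 members, 4 of them at 3 w, a shallower injured library and no removal of free RNA or doublets.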

Other observations

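Cell-cycle RNA was sparse: 30 of the 104 members had a UMI of any of the 10 cell-cycle genes and 8 had at least 3 of them. The list reached 706 CPM (42 UMIs) in the injured members, against 115, 92.4, 199 and 29.2 CPM in the normal libraries in order of age. The injured value rests on few cells: 1 cell without a class had 6 of the 10 genes. Another without a class and a dendritic cell had 3 each. Whether cycling differed between libraries was not tested. Lists for 3 other kinds of blood cell had few UMIs over all members. The eosinophil list had 25 UMIs, with 4 of its 8 genes at 0, the plasma-cell list 23 UMIs, of which 16 were Sdc1, and the megakaryocyte list 56 UMIs, of which 48 were Pf4. The progenitor list had 469 UMIs, led by Cpa3 and with 302 of them in the 3 mast-class cells. The erythroid list had 470 UMIs, 368 of them in cells without a class, with 1372 CPM at 3 d and at most 50.5 CPM in any other library. Dissociation-stress genes summed to less in members than in C1q leukocytes in 5 of 5 libraries, with ratios from 0.454 at 16 w to 0.966 at 3 d, where the interval of 0.932 to 1.00 reached 1.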
